A study of Saccharomyces cerevisiae with 4 samples.

Results

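The 3′ domains of the 18S rRNA were taken as nucleotides 1141 to 1800 of the deposited 18S sequence, 660 of its 1800 nucleotides and 660 of the 6858 nucleotides of the 35S pre-rRNA. Membership was set by position alone, and no measured value entered it. The 660 nucleotides hold 183 guanosines, 173 uridines, 163 adenosines and 141 cytidines. RNA-protein contacts were recorded in 4 libraries of Saccharomyces cerevisiae by PAR-CRAC. In this method 4-thiouracil is built into RNA, cells are irradiated at 365 nm, a tagged protein is purified with the RNA linked to it, and the linked uridine is read as C in place of T in the cDNA. Of the 4 libraries, 2 were made from BY4741 cells whose chromosomal DBP7 gene carries a C-terminal His-Tev-ProtA tag (Dbp7-HTP), and 2 from untagged BY4741 cells (WT), which give the background of the purification. Both strains received 4-thiouracil and were irradiated. The labels number the libraries 1 and 2 in each strain. The study describes them as independent experiments with both strains in each, and the numbers were taken to mark the experiments. The main tests did not pair libraries by number, so their p-values are set against the spread between libraries of a strain. A replicate block, used as an alternative, compares the strains within each experiment. Neither strain is a mutant: the design compares what co-purifies with the tagged helicase against what is recovered without a tag.

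The 18S rRNA is the RNA of the small ribosomal subunit. It is cut out of the 35S precursor, which also carries the 5.8S and 25S rRNAs of the large subunit. The 3′ major domain folds into the head of the small subunit, which holds the tRNA and mRNA paths and is modified at many nucleotides during assembly. The 3′ minor domain consists of the long penultimate helix 44, whose base forms the decoding centre, and helix 45, whose loop is dimethylated late in assembly by Dim1. The 3′ end itself is made in the cytoplasm by the endonuclease Nob1. Dbp7 is a DEAD-box helicase of large-subunit assembly.

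A stretch is used below for a run of at least 10 neighbouring nucleotides at which both Dbp7-HTP values lay above, or both lay below, both WT values of relative coverage. Relative coverage is the number of reads over a nucleotide divided by the mean over all 18S nucleotides of the same library, so that it does not depend on how many reads of the library lie in 25S. The 3 stretches with more relative coverage in Dbp7-HTP are shown first. The first and the last of them hold U1423 and U1579, which are among the most substituted uridines. The second, 1517 to 1533, holds neither and rests on few reads, with a mean of 8.94 in WT replicate 1. Its relative coverages were 0.114 and 0.131 with Dbp7-HTP, against 0.0661 and 0.107 in WT. In RPM its order was the reverse, with 39.0 and 46.5 with Dbp7-HTP against 56.2 and 98.5 in WT. The bases are printed as DNA as in the deposited files, and the capitals mark U1423 and U1579.
18S 1391 to 1426: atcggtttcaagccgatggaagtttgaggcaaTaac
18S 1517 to 1533: tcttgtgaaactccgtc
18S 1545 to 1596: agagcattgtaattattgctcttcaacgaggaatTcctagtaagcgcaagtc

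The 4 stretches with less relative coverage in Dbp7-HTP are shown because the windows with the largest log2 ratios lie mostly in the last 2 of them. The capitals mark U1626 and U1630. The third stretch holds the universally conserved run that leads into helix 44 at the decoding centre, and the last one lies in helix 44.
18S 1141 to 1159: gaattgacggaagggcacc
18S 1300 to 1362: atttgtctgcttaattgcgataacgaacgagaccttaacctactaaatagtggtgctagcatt
18S 1600 to 1676: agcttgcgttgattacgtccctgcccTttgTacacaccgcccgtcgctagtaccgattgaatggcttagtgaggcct
18S 1695 to 1752: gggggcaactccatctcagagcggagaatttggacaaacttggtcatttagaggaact

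The libraries held 1214217 and 730583 reads with Dbp7-HTP, against 159127 and 467529 reads in WT. The totals of both first replicates are estimates. The 35S coverage was spread very differently: 7.69% and 8.24% of it lay in 18S with Dbp7-HTP, against 31.2% and 41.5% in WT. For this reason the windows were tested on 2 scales, relative coverage and reads per 1000000 total reads (RPM). Single stretches, windows and nucleotides are mostly described on relative coverage. In RPM all 22 windows had log2 ratios of Dbp7-HTP over WT below 0. WT replicate 1 is the shallowest library, with a mean of 120.6 reads per nucleotide of the 3′ domains and a lowest value of 6. The means were 295.8 and 142.5 reads in Dbp7-HTP replicates 1 and 2, and 322.7 reads in WT replicate 2.

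The 3′ domains took a smaller part of the 18S reads with Dbp7-HTP than in WT. They held 26.1% and 20.1% of the 18S coverage in the Dbp7-HTP libraries, against 32.7% and 27.5% in the WT libraries. The Dbp7-HTP and WT values did not overlap, but Dbp7-HTP replicate 1 and WT replicate 2 lay close together. The means were 23.1% ± 4.24 with Dbp7-HTP and 30.1% ± 3.67 in WT (SD, n = 2 each), a difference of -6.99 percentage points (exact two-sided permutation test, p = 0.333, the smallest p that 2 against 2 libraries can give). Substitutions were divided in the same way, with 25.9% (95% Wilson interval 25.4 to 26.5) and 19.6% (19.0 to 20.2) of the 18S substitutions with Dbp7-HTP, against 32.5% (31.5 to 33.5) and 26.1% (25.5 to 26.7) in WT. Here the intervals of Dbp7-HTP replicate 1 and WT replicate 2 overlapped. The difference of means was -6.54 points (exact two-sided permutation test, p = 0.333). PCR copies are not independent molecules, and the intervals cover counting error only.

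**Figure D1:**
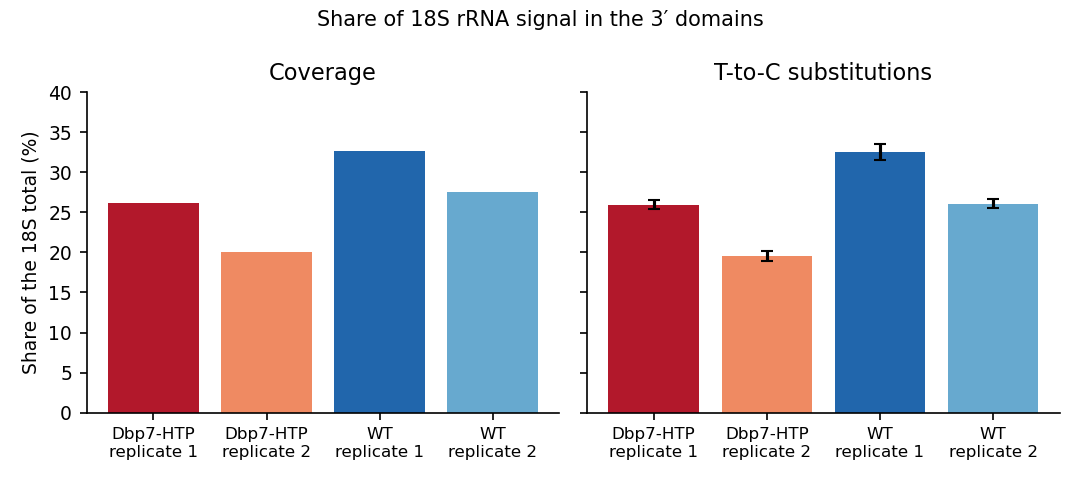
Share of the 18S coverage (left, %) and of the 18S T-to-C substitutions (right, %) that lay in nucleotides 1141 to 1800, one bar per library. Error bars on the right are 95% Wilson intervals. The Dbp7-HTP bars stand at 26.1% and 20.1% of coverage, below the WT bars at 32.7% and 27.5%.

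On the RPM scale the whole 18S rRNA was lower with Dbp7-HTP, and the 3′ domains more so than the nucleotides before them. The 660 nucleotides averaged 244 and 195 RPM in the Dbp7-HTP libraries, against 758 and 690 RPM in WT, a log2 difference of -1.73 (exact two-sided permutation test, p = 0.333). The 1140 nucleotides before them had 399 and 449 RPM with Dbp7-HTP, against 903 and 1053 RPM in WT, a log2 difference of -1.20. Within a library, the mean of the 3′ domains was 0.610 and 0.435 of the mean of the nucleotides before them with Dbp7-HTP, against 0.839 and 0.655 in WT. The log2 difference of that ratio was -0.53 (exact two-sided permutation test, p = 0.333).

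The share of substituted reads overlapped between the strains. Over all 173 uridines, 11.6% and 11.9% of the uridine coverage carried a substitution with Dbp7-HTP, against 13.1% and 10.6% in WT. The Dbp7-HTP values lay between the WT values, and the difference was -0.11 points (exact two-sided permutation test, p = 1). Only reads with a T-to-C change were kept. The coverage per substitution was 32.6 and 30.9 with Dbp7-HTP, against 29.3 and 35.1 in WT. Because of this filter, the pooled share cannot tell whether the strains differed in cross-linking. A substitution was seen in every library at 146 of the 173 uridines. At 1 uridine, U1528, it was seen in none, with 9 to 50 reads over it in a library, so that a share of up to 7.13% remained possible in the deepest library (95% Wilson interval). The 5 most substituted uridines of a library held 26.2% and 28.9% of its substitutions in the 3′ domains with Dbp7-HTP, against 24.99% and 26.2% in WT.

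Along the 3′ domains, the nucleotides with less relative coverage in Dbp7-HTP outnumbered those with more. Both Dbp7-HTP values lay below both WT values at 218 of the 660 nucleotides, 33.0%, where the same was true of 24.7% of all 1800 18S nucleotides. Both lay above both WT values at 109, 16.5%, where the share over 18S was 24.6%. In the 1140 nucleotides before the 3′ domains the shares were 19.8% below and 29.2% above. On the RPM scale the 3′ domains had 467 nucleotides below, 70.8%, and 0 above. Over the 35S pre-rRNA 32.1% of nucleotides were below and 38.2% above on that scale, and of the nucleotides of 18S before the 3′ domains 92.8% were below. Neighbouring nucleotides share reads and are not independent.

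**Figure D2:**
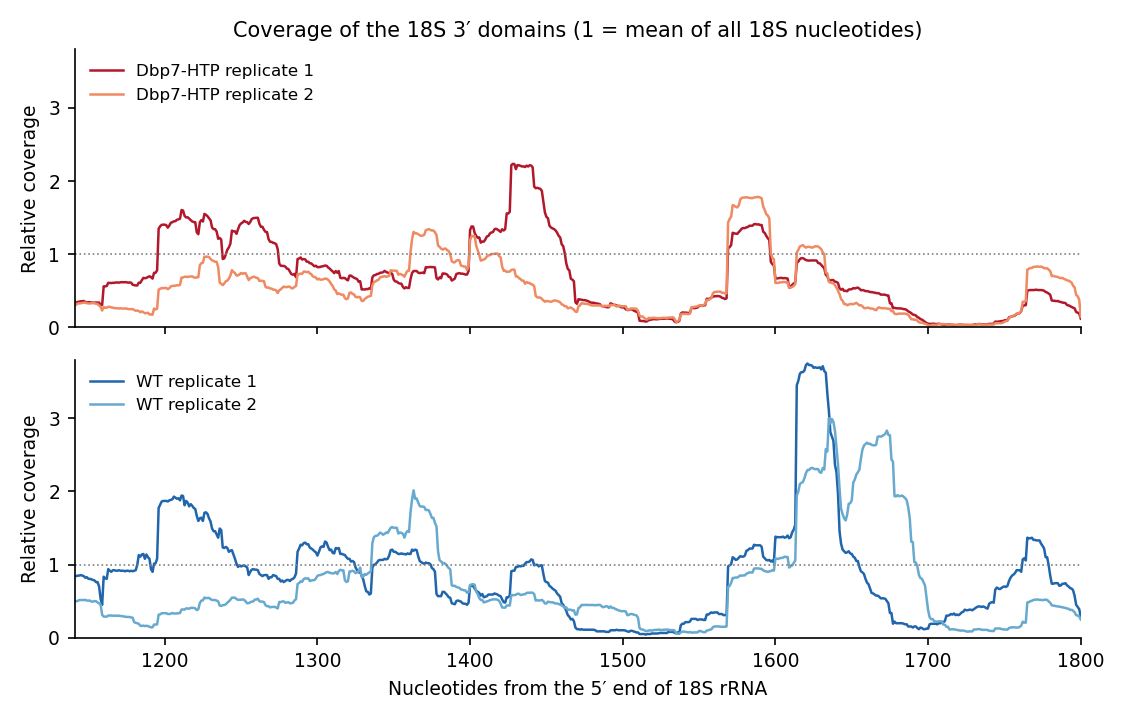
Relative coverage (1 is the mean of all 18S nucleotides of the library, dotted line) against the nucleotide number from the 5′ end of 18S rRNA, for the Dbp7-HTP libraries (top) and the WT libraries (bottom), one line per library. The WT lines rise to 3.75 at nucleotide 1621 and 2.998 at nucleotide 1635, where the Dbp7-HTP lines stay near or below 1.10.

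The profiles had a common frame. In all 4 libraries the coverage stepped up at nucleotide 1569, with 449 and 372 reads there after 165 and 121 reads at the nucleotide before with Dbp7-HTP, and 132 and 299 reads after 42 and 67 in WT. A second step common to all stood at nucleotide 1614, with 365 and 266 reads after 256 and 154 with Dbp7-HTP, and 467 and 837 reads after 209 and 455 in WT. The highest point differed. It lay at nucleotide 1428 in Dbp7-HTP replicate 1 (928 reads, relative coverage 2.23), at 1588 in Dbp7-HTP replicate 2 (463 reads, 1.78), at 1621 in WT replicate 1 (507 reads, 3.75) and at 1635 in WT replicate 2 (1290 reads, 2.998). The second maximum, at least 50 nt away, lay at nucleotide 1211 in both first replicates, at 1373 in Dbp7-HTP replicate 2 and at 1363 in WT replicate 2. The highest points of both WT libraries thus lay 14 nucleotides apart, and those of the Dbp7-HTP libraries were in different parts of the major domain.

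Replicates of a strain were less alike over the 3′ domains than over the rest of 18S. Across the 660 nucleotides of the 3′ domains the coverage of the Dbp7-HTP replicates had a Pearson r of 0.597, and that of the WT replicates 0.471. Across the 1140 nucleotides before them the values were 0.947 and 0.738. Between strains, r over the 3′ domains ranged from 0.0675 to 0.480. These correlations run across nucleotides that share reads and are given as a description.

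At the 5′ border, nucleotides 1141 to 1159 had relative coverages of 0.342 and 0.318 with Dbp7-HTP, against 0.778 and 0.491 in WT. This run belongs to one of the most conserved parts of small-subunit rRNA, close to the junction of the central and 3′ domains. The whole first window of 30 nt, 1141 to 1170, had 0.435 and 0.300 with Dbp7-HTP, against 0.820 and 0.421 in WT, and here the values overlapped.

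From nucleotide 1171 to 1260, in the head of the subunit, the libraries were ordered by replicate number and not by strain. The window from 1201 to 1230, among the 3 highest of the Dbp7-HTP libraries, had relative coverages of 1.46 and 0.709 with Dbp7-HTP, against 1.79 and 0.410 in WT. Both first replicates were above both second replicates there and in the windows on either side. The log2 ratio of Dbp7-HTP over WT was 0.24 ± 0.74 (SE, limma on log2 of relative coverage plus 0.01). The most substituted uridine of that window, U1206, had 332 and 29 substitutions with Dbp7-HTP, against 169 and 72 in WT. The share of its reads that were substituted was 55.1% and 19.6% with Dbp7-HTP, against 64.8% and 50.3% in WT, so that Dbp7-HTP replicate 2 stood apart from the others.

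The window before it holds U1191, the hypermodified uridine of the P-site loop, which was chosen after its values were seen. Its modification, added in steps by snR35, Emg1 and Tsr3, blocks the base-pairing face of the base. U1191 carried 44 and 5 substitutions among 285 and 46 reads with Dbp7-HTP, against 10 and 5 among 127 and 62 reads in WT. The substituted shares were 15.4% and 10.9% with Dbp7-HTP, against 7.87% and 8.06% in WT. Their intervals overlapped between all 4 libraries, those of Dbp7-HTP replicate 1 (11.7 to 20.1%) and WT replicate 1 (4.33 to 13.9%) included.

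Nucleotides 1300 to 1362 were lower with Dbp7-HTP, with relative coverages of 0.686 and 0.600, against 1.08 and 1.13 in WT. The replicates of each strain were close to each other here. Behind this stretch, U1372, among the 5 most substituted uridines of WT, had 50 and 103 substitutions with Dbp7-HTP, against 35 and 292 in WT. WT replicate 2 was high and the other 3 libraries were not ordered by strain.

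Nucleotides 1391 to 1426 were higher with Dbp7-HTP, with relative coverages of 1.17 and 0.946, against 0.566 and 0.563 in WT. In RPM the order was the reverse, with 400 and 337 with Dbp7-HTP against 481 and 518 in WT. U1423 lies in this stretch and had 269 and 141 substitutions with Dbp7-HTP, against 22 and 65 in WT. Its reads were substituted in 48.2% and 70.1% of cases with Dbp7-HTP, against 33.8% and 36.7% in WT, and the values did not overlap. On the scale of all 18S substitutions its log2 ratio was 1.93 (edgeR quasi-likelihood test, adjusted p = 0.245), and on the scale of total reads 0.58 (adjusted p = 0.428).

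The window from 1411 to 1440 had relative coverages of 1.75 and 0.798 with Dbp7-HTP, against 0.762 and 0.535 in WT, a log2 ratio of 0.88 ± 0.48 (SE, limma, adjusted p = 0.432). The plateau from 1427 on was a feature of Dbp7-HTP replicate 1. At nucleotide 1428, a guanosine that is 2′-O-methylated in mature 18S, the relative coverage was 2.23 and 0.789 with Dbp7-HTP, against 0.917 and 0.583 in WT. U1443, on the far side of that plateau, had 317 and 43 substitutions with Dbp7-HTP, against 48 and 74 in WT. Its substituted shares were 40.1% and 38.4% with Dbp7-HTP, against 35.6% and 33.8% in WT, all 4 with overlapping intervals in the plot of substituted shares.

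Nucleotides 1545 to 1596 were the third stretch with more relative coverage in Dbp7-HTP, 0.871 and 1.08, against 0.749 and 0.521 in WT. Scaled to total reads, the order was reversed, with 298 and 385 RPM with Dbp7-HTP against 637 and 480 RPM in WT. The stretch holds G1575, which the methyltransferase Bud23 converts to m7G on the ridge between the P and E sites. At G1575 the relative coverage was 1.28 and 1.64 with Dbp7-HTP, against 1.07 and 0.823 in WT. The window from 1561 to 1590, among the 3 highest of the Dbp7-HTP libraries, had a log2 ratio of 0.62 ± 0.37 (SE, limma, adjusted p = 0.432). Both Dbp7-HTP libraries had their largest downward step at nucleotide 1597, with 372 and 264 reads after 497 and 387.

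U1579, 4 nucleotides downstream of G1575, was the most substituted uridine of the 3′ domains in both Dbp7-HTP libraries. It had 447 and 368 substitutions with Dbp7-HTP, against 95 and 144 in WT. Of the reads over it, 79.3% and 79.8% were substituted with Dbp7-HTP, against 63.3% and 39.2% in WT. The Dbp7-HTP replicates were within 1 point of each other and the WT replicates were not. The means were 79.5% ± 0.404 with Dbp7-HTP and 51.3% ± 17.0 in WT (SD, n = 2 each; exact two-sided permutation test, p = 0.333). On the scale of all 18S substitutions the log2 ratio was 1.30 (edgeR, adjusted p = 0.320), and on the scale of total reads -0.05.

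**Figure D3:**
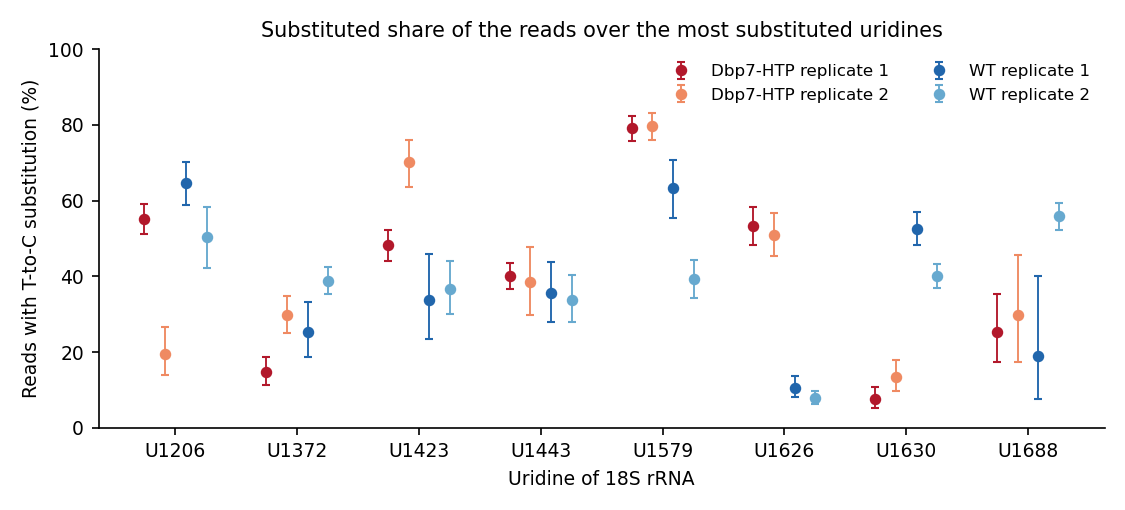
Share of the reads over a uridine that carried a T-to-C substitution (%), for the 8 uridines with the largest shares of the 18S substitutions in either strain. Points are single libraries and error bars are 95% Wilson intervals. At U1626 the Dbp7-HTP points are at 53.4% and 51.0% and the WT points at 10.6% and 7.87%, and at U1630 the order is turned round.

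Measured as a difference in relative coverage, the stretch that stood furthest apart was nucleotides 1600 to 1676, on the run that leads into the decoding centre and on the start of helix 44. The relative coverage of this stretch was 0.635 and 0.580 with Dbp7-HTP, against 1.86 and 2.14 in WT. Scaled to total reads, the stretch had 217 and 206 RPM in the Dbp7-HTP libraries, against 1582 and 1974 RPM in the WT libraries. The 3 highest windows of the WT libraries lie in or reach into it. The window from 1621 to 1650 had relative coverages of 0.704 and 0.722 with Dbp7-HTP, against 2.68 and 2.28 in WT. Replicates of a strain agree closely in this window. Its log2 ratio was -1.78 ± 0.33 (SE, limma), with an unadjusted p of 0.00168 and an adjusted p of 0.101 over the 60 windows of 18S. At C1639, a cytidine 2′-O-methylated under the guidance of snR70, the relative coverage was 0.624 and 0.577 with Dbp7-HTP, against 2.37 and 2.83 in WT.

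The neighbouring windows differed in how well the WT libraries repeated. From 1591 to 1620 the relative coverage was 0.856 and 0.947 with Dbp7-HTP, against 1.82 and 1.26 in WT (log2 ratio -0.74 ± 0.36, SE, limma, adjusted p = 0.426). From 1651 to 1680 it was 0.446 and 0.262 with Dbp7-HTP, against 0.635 and 2.52 in WT (log2 ratio -1.86 ± 0.68, SE, limma, adjusted p = 0.366). WT replicate 2 carried a second peak there that WT replicate 1 did not. That peak continued to U1688, at which 22 and 11 substitutions were counted with Dbp7-HTP, against 4 and 392 in WT.

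Within the window from 1621 to 1650, 2 uridines 4 nucleotides apart were substituted in opposite order. U1626 had 203 and 147 substitutions with Dbp7-HTP, against 53 and 78 in WT. Of its reads, 53.4% and 51.0% were substituted with Dbp7-HTP, against 10.6% and 7.87% in WT. U1630 had 27 and 37 substitutions with Dbp7-HTP, against 261 and 389 in WT, where it was the most substituted uridine of the 3′ domains in WT replicate 1. Of its reads, 7.61% and 13.3% were substituted with Dbp7-HTP, against 52.6% and 40.1% in WT. At both uridines the values of the strains lay far apart and did not overlap. U1626 was named as among the 5 most substituted uridines of Dbp7-HTP, and U1630 as among the 5 of WT. That choice favours opposite orders. Replicates were close at U1626 and further apart at U1630.

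The means at U1626 were 52.2% ± 1.68 with Dbp7-HTP and 9.24% ± 1.93 in WT, and at U1630 10.5% ± 4.03 with Dbp7-HTP and 46.4% ± 8.85 in WT (SD, n = 2 each; exact two-sided permutation tests, p = 0.333 for each). In a fit of the odds of substitution over 480 uridines of 18S, which was added after these values were seen, the log2 odds ratio was 3.43 ± 0.61 at U1626 and -2.92 ± 0.67 at U1630 (SE, limma). The adjusted p-values were 0.184 and 0.294, so neither passed. Only reads with a T-to-C change were kept, and a read over one of these uridines mostly covers the other, so the 2 shares are not independent. On the scale of all 18S substitutions U1630 had a log2 ratio of -3.76 (edgeR, adjusted p = 0.0705), the lowest p of the 3′ domains, and U1626 one of 0.92 (adjusted p = 0.527). With the replicate block, which compares the strains within each experiment, U1630 passed with the same ratio of -3.76 (edgeR, adjusted p = 0.00152). Scaled to total reads, U1630 fell with Dbp7-HTP, with a log2 ratio of -5.09 (edgeR, adjusted p = 0.00908), and U1626 had -0.42 (adjusted p = 0.592).

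The rest of helix 44 was almost free of reads with Dbp7-HTP. Nucleotides 1695 to 1752 had relative coverages of 0.0522 and 0.0435, against 0.368 and 0.190 in WT, from means of 21.7 and 11.3 reads per nucleotide with Dbp7-HTP and 49.7 and 81.8 reads in WT. The window from 1711 to 1740 had a log2 ratio of -2.17 ± 0.57 (SE, limma, adjusted p = 0.262). WT was low here too, and the difference rests on few reads. At A1755, one of the paired adenosines of the decoding site, only WT replicate 1 stood apart, with relative coverages of 0.149 and 0.150 for Dbp7-HTP against 0.850 and 0.144 for WT.

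The last 30 nt, helix 45 and the single-stranded tail, had relative coverages of 0.363 and 0.666 with Dbp7-HTP, against 0.824 and 0.428 in WT. The values overlapped and the log2 ratio was -0.27 ± 0.49 (SE, limma, adjusted p = 0.891). At the acetylated C1773 the relative coverage was 0.510 and 0.827 with Dbp7-HTP, against 1.33 and 0.518 in WT. At the dimethylated A1781 it was 0.368 and 0.700 with Dbp7-HTP, against 0.739 and 0.444 in WT. At A1800, the last nucleotide of mature 18S, 50 and 38 reads lay over the end with Dbp7-HTP, against 39 and 108 in WT. Over the first nucleotide of the spacer ITS1, behind the end, there were still 37 and 23 reads with Dbp7-HTP, against 26 and 91 in WT. That is 74.0% and 60.5% of the reads at A1800 with Dbp7-HTP, against 66.7% and 84.3% in WT, which overlapped. The modified nucleotides named here were chosen after their values were seen.

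Fitted over all 60 windows of 18S, none of the 22 windows of the 3′ domains passed an adjusted p of 0.05 on relative coverage in either direction, and neither did any other (0% of 60 each way). At an unadjusted p below 0.05, 3 of the 22 were lower with Dbp7-HTP, where 8.33% of the 60 were, and 0 were higher, where 5% were. The 3 were the windows from 1621, 1651 and 1711. The median log2 ratio was -0.21 over the 22 windows and 0.03 over the 38 others. In windows of 60 nt instead of 30, 2 of the 11 in the 3′ domains passed, both lower, where 6.67% of 30 in 18S were lower and 0% higher. They were 1621 to 1680 with a log2 ratio of -1.89 (limma, adjusted p = 0.0172) and 1681 to 1740 with -2.20 (adjusted p = 0.0172). Without WT replicate 1, 4 of the 22 windows were lower and 2 higher, where 11.7% of the 60 were lower and 5% higher. Without WT replicate 2, 5 were lower and 2 higher, where 10% were lower and 5% higher. The single WT library left was assumed to vary as the Dbp7-HTP libraries did. The windows from 1621 and from 1711 were lower both times. The higher ones were those from 1201 and 1531 without WT replicate 1, and those from 1471 and 1501 without WT replicate 2.

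On the RPM scale, where the dilution by 25S reads remains, 9 of the 22 windows were lower with Dbp7-HTP and 0 were higher (limma, adjusted p below 0.05 over 221 windows of 35S). Of all 221 windows, 14% were lower and 16.3% higher. Of the 38 other windows of 18S, 13 were lower. The 9 were the first window, the 3 from 1291 to 1380 and the 5 from 1591 to 1740. The log2 ratios of these ran from -1.88 to -3.67, and the lowest adjusted p, 0.00645, was that of 1621 to 1650 (-3.13 ± 0.39, SE). All 22 windows had ratios below 0, with a median of -1.55, beside -1.31 in the other windows of 18S. Without Dbp7-HTP replicate 1, and likewise without Dbp7-HTP replicate 2, 0 of the 22 passed, where 0.452% and 0% of the 221 were lower and 2.26% and 1.81% higher. Without WT replicate 2, 14 were lower and 0 higher, where 25.2% of 222 windows were lower and 22.5% higher.

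**Figure D4:**
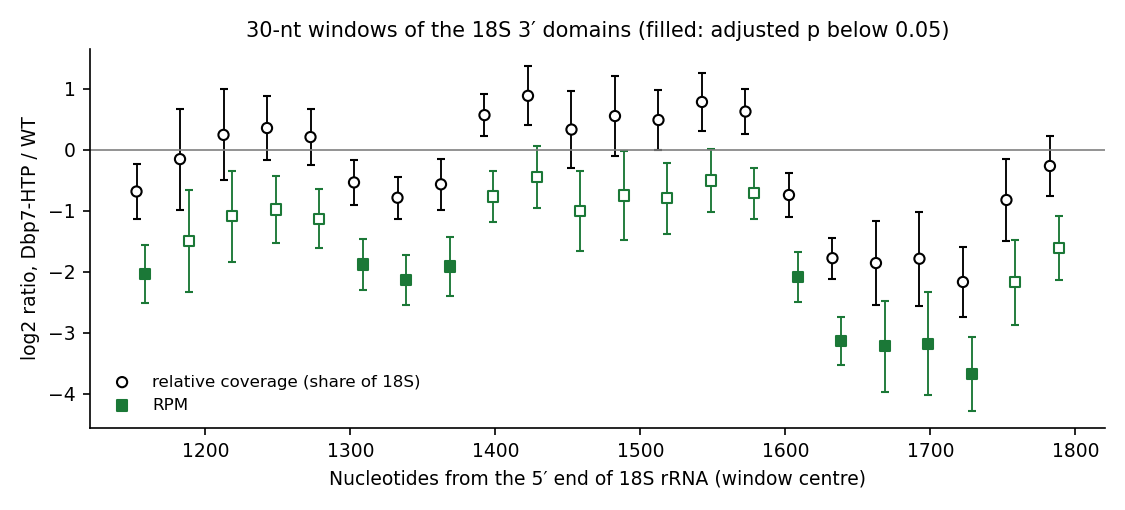
log2 ratio of Dbp7-HTP over WT in the 22 windows of 30 nt, against the window centre in nucleotides from the 5′ end of 18S rRNA. Circles are ratios of relative coverage and squares ratios of RPM, error bars are standard errors of the limma fit, and filled symbols have an adjusted p below 0.05. The 9 filled squares are the windows called on RPM, all below 0, and no circle is filled.

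At single uridines, the counts of substitutions were compared. Of the 173 uridines, 157 had at least 10 substitutions over the 4 libraries and were tested. On the scale of all 18S substitutions, 0 of the 157 passed in either direction (edgeR, adjusted p below 0.05), as of all 476 tested in 18S (0% each way). At an unadjusted p below 0.05, 30 were lower with Dbp7-HTP, where 10.5% of the 476 were, and 7 were higher, where 4.83% were. The median log2 ratio was -0.68 over the 157 and -0.52 over the 476. DESeq2 with its own size factors gave an adjusted p to 58 of the 157, of which 2 were lower and 3 higher, where 1.1% of the 181 in 18S were lower and 7.73% higher. U1630 was among these with a log2 ratio of -3.44 (adjusted p = 5.73e-05), and U1423 with 2.23 (adjusted p = 0.0240). With the replicate block in edgeR, 5 of the 157 were lower and 0 higher, where 1.05% of the 476 were lower and 0.21% higher. They were U1628, U1630, U1724, U1738 and U1742, the last 3 and U1628 named after their values were seen. The last 3 lie in the stretch from 1695 to 1752, where Dbp7-HTP had means of 21.7 and 11.3 reads per nucleotide. They had too few reads to enter the odds fit, so these 3 calls rest on few reads. Their log2 ratios were -6.59, -6.22 and -6.59. They thus reached the filter of 10 substitutions almost only through WT, so that a call could only be lower.

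On the scale of total reads, 53 of the 157 were lower with Dbp7-HTP and 0 higher (edgeR). Over the 1499 uridines of 35S, 10.7% were lower and 12.7% higher, and 85 of the 319 others of 18S were lower. Without Dbp7-HTP replicate 1, and likewise without Dbp7-HTP replicate 2, 0 of the 152 and 153 uridines still tested passed, where 0% were lower and 0.795% and 0.694% higher over 35S. For the odds of substitution, 145 of the 173 uridines had at least 20 reads in every library, and 0 passed in either direction, as of all 480 in 18S (0% each way). At an unadjusted p below 0.05, 16 were lower, where 8.54% of the 480 were, and 10 higher, where 5% were. The lowest p was that of U1561, at which 0 and 0 substitutions were counted among 177 and 126 reads with Dbp7-HTP, against 2 and 3 among 47 and 67 reads in WT.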

How the data were processed

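The 2 Dbp7-HTP and 2 WT PAR-CRAC libraries were grouped by their labels. Replicate numbers were taken to mark the independent experiments that the study describes. The deviations of same-numbered libraries were only weakly correlated on relative coverage. The correlation was 0.224 over the 60 windows of 18S, 0.161 over the 22 of the 3′ domains and 0.116 over the 38 others. Reads were mapped by the authors with Bowtie2 (version 2.2.4), reads lacking a T-to-C change were discarded, and RNA classes were counted with pyCRAC. The genome release is not given in the sources used here, so nucleotides are numbered along the deposited 18S sequence. The authors deposited, for every nucleotide of 35S, the coverage signal and the count of substitutions, neither of them normalized. The deposited RNA class values are scores, reads per 1000000 rounded by the authors, in overlapping classes. They served only for total reads, which the deposited files state for the second replicates. The totals of first replicates are estimates. The 35S coverage was divided by the rRNA score and by the 35S coverage per scored rRNA read of the strain's second library. That was 11.1 with Dbp7-HTP and 12.2 in WT. In these libraries the coverage per substitution of the 3′ domains was higher, 30.9 and 35.1. Every kept read carries a substitution, so the score and the coverage may count reads differently. This was not tested and limits the RPM scale. The 4 spacer nucleotides that repeat a neighbouring one were removed. Deletions were 0 and not used, and snoRNA values were not used here.

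Windows of 30 nt were compared with limma (version 3.58.1, R 4.3.3) on log2 of relative coverage plus 0.01 or of RPM plus 1, for windows with a mean of at least 0.01 or 10. Fold changes on these scales understate those of low windows. Substitution counts of uridines with at least 10 substitutions were compared with edgeR's quasi-likelihood test (version 4.0.16), and with DESeq2 (version 1.42.0) as an alternative. The odds of substitution were compared with limma after adding 0.5 to substituted and unsubstituted reads, over uridines with at least 20 reads in every library. Benjamini-Hochberg adjustment covered all windows or uridines of 18S, or of 35S on RPM. Shares were compared by exact permutation tests of 2 against 2 libraries. Procedures were tested on simulated data. Python 3.11.15, numpy 2.4.6, scipy 1.17.1, pandas 2.3.3 and matplotlib 3.10.9 were used.

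Named are windows and uridines past the threshold on the 18S scale, the 3 highest windows and 5 most substituted uridines of each strain, the 3 highest maxima of a library at least 50 nt apart, and the first and last 30 nt. A window or uridine named as high in a single strain was picked where it is high, which favours a difference in that direction. Such were U1423, U1443 and U1626 (Dbp7-HTP) and U1372, U1630 and U1688 (WT). The named windows other than the first and last were picked in the same way. The range, lists and tests were chosen with earlier results of these data known. The odds test, the stretches and the modified nucleotides were chosen after the data were seen. Alternatives were other window lengths, pseudocounts, filters, scalings, tools, the replicate number as a block, and leaving out each library.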

Additional observations from a re-analysis of the deposited data

How the results depend on the processing

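The smaller share of the 3′ domains in 18S coverage and substitutions with Dbp7-HTP, and their lower mean RPM, kept their direction under all alternatives. For most of these the direction was fixed in advance. The replicate block gives the same difference of means by construction (-6.99 points of coverage). The values of the strains did not overlap, so leaving out a library could not turn the sign. Only the scalings to 35S and the share without the highest 18S window could have done so. Without single libraries the difference ran from -9.99 (without Dbp7-HTP replicate 1) to -3.99 points (without Dbp7-HTP replicate 2) in coverage, and from -9.75 (without WT replicate 2) to -3.33 points (without WT replicate 1) in substitutions. With 2 libraries a strain, the exact test cannot pass 0.05. The percentage of substituted uridine coverage changed sign, to 0.186 points with at least 50 reads in every library. Without single libraries it ran from -1.39 to 1.17 points. Several counts of called windows below stand without the share over all windows. These are the counts for limma's trend and robust options, the fit of all 35S windows, windows of 20 nt and the 35S scaling. Whether they are particular to the 3′ domains was not tested. The number of the 22 windows called on relative coverage, 0, became 2 with windows of 60 nt, 1 with limma's trend and robust options, 4 in a fit of all 35S windows, and 0 to 7 without single libraries. On RPM, 9 became 16 with windows of 20 nt (more windows tested), 15 when scaled to 35S coverage, and 0 to 14 without single libraries.

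The number of the 157 uridines called on the 18S scale, 0, became 4 with DESeq2 on the same size factors and 5 with its own (of 58 with an adjusted p). It became 1 without a filter and 5 with the replicate block, and stayed 0 with edgeR's TMM normalization factors. On total reads, 53 became 96 with the library size set to 35S substitutions, and ran from 0 to 73 without single libraries. The highest count without single libraries, that without WT replicate 1, held calls in both directions. In the odds fit, 0 became 1 with 0.1 added. Several of these counts stand without the share over all uridines. They are those for the 35S library size, DESeq2 on the same size factors, no filter, 0.1 added, and single WT libraries left out. Whether they are particular to the 3′ domains was not tested. Of the named windows and uridines, the replicate block brought U1630 on the 18S scale and, on total reads, the window from 1771 (-1.61) and U1372 (-2.27) past the threshold, and changed no other call.

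Several named log2 ratios changed sign. Without single libraries, the ranges on relative coverage were -0.81 to 1.29 for the window from 1201 and -0.73 to 0.20 for that from 1771, and on RPM -0.99 to 0.088 for that from 1411. On the 18S scale they were -2.63 to 1.40 for U1206, -1.96 to 0.055 for U1372, -0.68 to 1.63 for U1443 and -4.32 to 0.80 for U1688 (odds -1.71 to 0.59). On total reads they were -3.92 to 0.047 for U1206, -1.95 to 0.19 for U1443, -0.46 to 0.50 for U1579 and -0.86 to 0.14 for U1626. U1423 was -0.31 with the 35S library size, and U1579 0.0080 with the replicate block. The causes were not tested. Of the single-window and single-uridine values, 132 and 175 kept direction and side of the threshold. Depth was lowest in WT replicate 1.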
